A study of Mus musculus with 18 samples.

Results

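Kinesins are motor proteins that use ATP to move along microtubules or to take their ends apart. The genes described here are all those of the count table whose symbol is Kif followed by a number and an optional letter, 37 of 23420 symbols. By textbook role, 12 were taken as mitotic, 15 as transport motors, 6 as ciliary and 4 as other (Kif2a, Kif12, Kif26a and Kif26b). The transport motors were split into 6 that are enriched in neurons (Kif1a, Kif3c, Kif5a, Kif5c, Kif17 and Kif21b) and 9 that are broadly expressed. The RNA came from brains of Camk2a-Cre-Rpl22HA mice, in which Cre under the Camk2a promoter, active in forebrain excitatory neurons, tags Rpl22, a protein of the ribosome, with HA. Control mice had no tumor, tumor mice had glioma cells implanted into the cortex, and AZD8055 mice had such a tumor and received AZD8055, an inhibitor of the mTOR kinase. The sources used here give neither the age of the mice, nor the glioma line, nor the dose and time of treatment. From each condition, total RNA (input) and polysomal RNA pulled down through the tag (IP) were sequenced, with 3 libraries in each of 6 groups, 18 in all. The labels do not say that each library number is a separate mouse, so the p-values speak only to how these libraries vary, and that variation may be technical in part.

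Mitotic kinesins assemble the bipolar spindle, align chromosomes and divide the cell at the midzone, and they are made mainly in cells that divide. Neurons have left the cell cycle, and their long axons and dendrites depend on transport kinesins such as the kinesin-1, kinesin-2 and kinesin-3 motors, which carry vesicles, organelles and other cargo along microtubules. In brain tissue the levels of these groups of genes therefore depend on which cells are present as well as on what each cell makes.

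Total counts lay between 13561511 and 34178417. The excitatory-neuron markers Camk2a, Slc17a7, Neurod2, Neurod6, Tbr1 and Nrgn were present in every library, with at least 410 counts each. The library names fall into 3 sets. The first holds control and tumor input, the second control and tumor IP, and the third every AZD8055 library. AZD8055 against tumor therefore cannot be told apart from the difference between library sets, and nor can IP against input in control or in tumor. Some libraries stood apart for the kinesins. AZD8055 replicate 1 was the highest of its 3 libraries for 11 of 11 mitotic kinesins in input and for 11 of 11 in IP. Tumor replicate 1 was the lowest for 13 of 15 transport kinesins in input and for 13 of 15 in IP.

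The start regions of the mitotic genes carry words that the transport genes mostly lack. Any link between these words and the levels of the genes was not tested. RefSeq windows of 300 bases (GRCm38.p6, 250 bases before to 50 after a transcript start) were available for 31 of the 37 genes. The 11 mitotic windows include that of Kif2b, whose level was too low to test, and lack Kif20a. They are therefore not the same set as the mitotic genes tested below. The CHR word, a cell-cycle gene element, was searched as TTTGAA or TTCGAA on both strands, and the CCAAT box likewise on both strands. A CHR word was found in 9 of 11 mitotic windows (81.8%), in 0 of 11 transport windows and in 17.3% of the 16375 windows of genes in the count table. A second window of Kif1a held a CHR word. CCAAT was found in 63.6% of the mitotic windows, 27.3% of the transport windows and 39% of those of the table. Both were found in 54.5% of the mitotic windows and in 7.22% of those of the table. The E2F word, searched as TTTGGCGC or TTTCGCGC on both strands, was found in 2 of 11 mitotic windows (Kif15 and Kif18a), in 0 of 11 transport windows and in 1.12% of those of the table. The transcript start of the window lay within 100 bases of the edge of the gene for 9 of the 11 mitotic and 5 of the 11 transport genes. Some windows therefore belong to other transcripts. A match is a run of letters and not a measured binding site. The following bases end just before the gene and are written along the gene's own strand, with matches in capitals. Kif11 carries CCAAT and CHR in reverse. Kif15 carries the reverse E2F word beside a reverse CHR word, which share no base, and Kif18b carries a pair of CCAAT boxes. A CHR word of Kif18b lies after the transcript start, beyond the bases shown. Kif3b and Kif5c, both transport genes, are shown for contrast, the first with a CCAAT box and the second with no match. All genes shown were chosen after the matches were seen.
Kif11, chr19:37376262-37376381, plus strand, 120 bases: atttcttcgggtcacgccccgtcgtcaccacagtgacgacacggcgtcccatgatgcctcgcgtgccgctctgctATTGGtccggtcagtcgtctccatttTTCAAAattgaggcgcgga
Kif15, chr9:122950961-122951080, plus strand, 120 bases: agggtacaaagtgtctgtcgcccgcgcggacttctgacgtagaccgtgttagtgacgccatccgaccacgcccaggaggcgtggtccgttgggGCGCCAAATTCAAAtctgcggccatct
Kif18b, chr11:102925135-102925244, minus strand, 110 bases: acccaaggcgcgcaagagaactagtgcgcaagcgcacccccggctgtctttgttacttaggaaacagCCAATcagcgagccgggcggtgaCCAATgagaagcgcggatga
Kif3b, chr2:153291296-153291394, plus strand, 99 bases: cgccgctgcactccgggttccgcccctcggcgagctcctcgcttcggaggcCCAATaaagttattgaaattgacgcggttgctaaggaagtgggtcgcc
Kif5c, chr2:49619166-49619285, plus strand, 120 bases: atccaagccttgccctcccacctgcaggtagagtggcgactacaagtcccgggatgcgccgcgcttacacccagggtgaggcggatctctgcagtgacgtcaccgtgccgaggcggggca

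The first comparison asked how the kinesins differed between tumor and control in each fraction, and both groups of a fraction lie within a library set. Mitotic kinesins were higher in tumor. Among the 8 that pass the filter on low counts in the control libraries alone, the fold ran from 6.92 (Kif20a) to 15.5 (Kif4) in IP and from 8.98 (Kif18a) to 24.4 (Kif20a) in input. Levels are given as CPM, counts scaled to library size after TMM normalization of the libraries, in the order of replicates 1, 2 and 3. They are not divided by transcript length, so they are compared between groups and not between genes. Summed over the 12 mitotic genes, control input stood at 22.1, 18 and 19.1 CPM and control IP at 18.2, 20 and 19.3. Tumor input stood at 308, 286 and 262 and tumor IP at 216, 242 and 224, so neither fraction overlapped with its controls. In bulk RNA, more dividing cells and more mitotic RNA per cell cannot be told apart.

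Kif11 (chromosome 19, 37376382 to 37421863, GRCm38.p6, as for all positions below) encodes the motor that pushes the spindle poles apart. It stood at 4.9, 5.76 and 5.38 CPM in the control input libraries and at 62.4, 68.8 and 48.3 in tumor input. In IP it was at 3.88, 4.8 and 4.29 CPM in control and at 41.7, 54.1 and 43.2 in tumor. Every tumor library lay above every control library, and the log2 fold was 3.47 ± 0.42 (SE from the fit, here and below) in input and 3.46 ± 0.31 in IP, with adjusted p of 0.000123 and 1.1e-05 in edgeR. Kif15, a motor that can take over part of the work of Kif11, rose by 4.43 ± 0.43 in input, from 1.34, 1.22 and 1.04 CPM to 22.6, 29 and 27.1. In IP it rose by 3.47 ± 0.34, from 1.73, 2.28 and 2.07 CPM to 19.3, 23.8 and 22.8. The control libraries of both genes lay close together and far below those of tumor.

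Kif20a (chromosome 18, 34624624 to 34633277) carries the chromosomal passenger complex to the midzone. It stood at 1.59, 0.831 and 0.856 CPM in the control input libraries and at 31.9, 24.3 and 24.3 in tumor input. In IP it was at 2.8, 2.7 and 2.51 in control and at 16.9, 17.7 and 19.7 in tumor. Its log2 fold was 4.61 ± 0.38 in input and 2.79 ± 0.18 in IP, the smallest of the mitotic kinesins in IP. Its span overlaps Brd8 and Cdc23, and no source used here states whether counting used strand, so reads of these genes may be mixed. Kif23, which forms the centralspindlin complex with Racgap1, stood at 2.35, 1.44 and 2.32 CPM in the control input libraries and 20.9, 16.3 and 21.2 in tumor input. In IP it was at 0.716, 1.33 and 1.09 CPM in control and 14.7, 14.4 and 14.2 in tumor, and the log2 fold was 3.24 ± 0.39 in input and 3.84 ± 0.29 in IP. The groups of Kif20a and of Kif23 did not overlap in either fraction.

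Kif2c, Kif14 and Kif18b did not pass the filter on low counts in the control libraries alone, so they entered the test through the other libraries and had to differ. Kif2c, which takes microtubule ends apart at centromeres, stood at 0.318, 0.332 and 0.367 CPM in the control input libraries and at 18.8, 16.4 and 13 in tumor input. Kif18b, which acts on the ends of astral microtubules, stood at 1.15, 0.388 and 0.489 CPM in the control input libraries and 24.3, 21.3 and 19.4 in tumor input. Kif14, which acts in cytokinesis, stood at 1.08, 0.887 and 0.367 in control input and 18.8, 17.3 and 15.7 in tumor input. These controls are near the limit of what the libraries can measure, and the size of the folds rests on few counts. Kif2b, a relative of Kif2c, had between 0 and 5 counts in every library and was not tested.

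The 4 other mitotic genes showed the same separation. The chromosome-arm motors Kif4 (3.93 ± 0.33 in input and 3.95 ± 0.23 in IP) and Kif22 (3.82 ± 0.41 and 2.90 ± 0.23) were higher in tumor. So were Kif18a, which aligns chromosomes (3.17 ± 0.33 and 3.26 ± 0.33), and Kif20b, which acts in cytokinesis (3.41 ± 0.39 and 3.39 ± 0.27). The span of Kif18a overlaps Mettl15. In all, the edgeR test called 11 of 11 tested mitotic kinesins higher in each fraction, 8 of them genes that pass the filter in the control libraries alone. Of all genes tested, 26.1% were called higher and 47% in either direction in IP, and 24.5% and 48.1% in input. The median log2 fold of the 11 was 3.47 in IP and 3.93 in input, beside 0.02 and -0.01 over all genes. All 11 were also called without any single control or tumor library. The median and these calls include Kif2c, Kif14 and Kif18b, which entered the test through the other libraries.

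**Figure D1:**
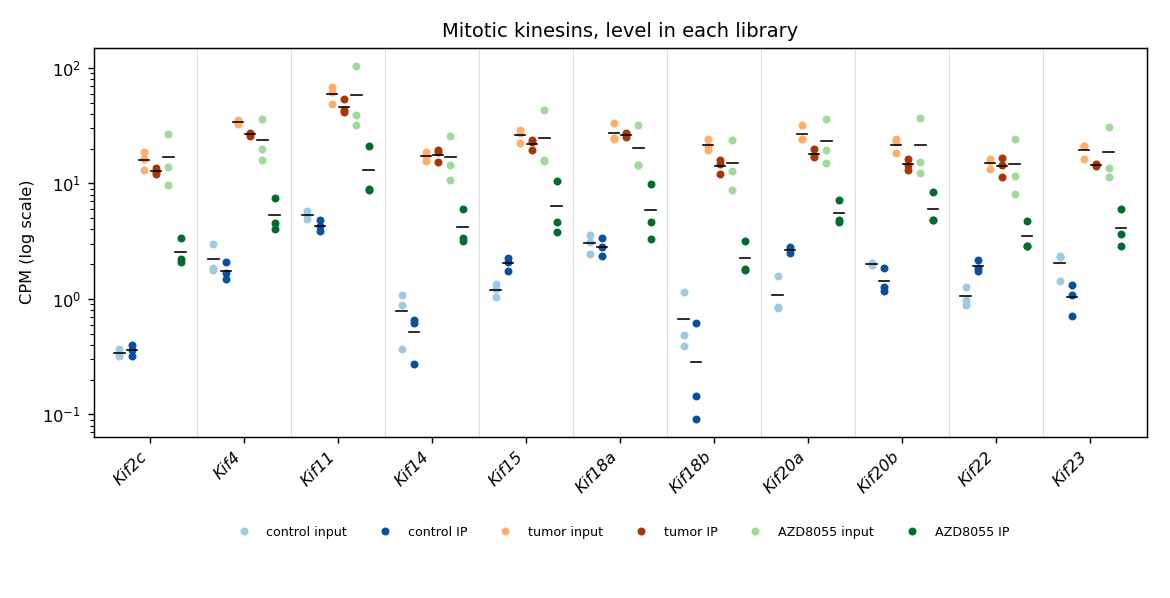
Level of each tested mitotic kinesin in every library, in CPM on a log scale, with points for libraries, colors for the 6 groups and black bars for group means. Tumor libraries lie above control libraries for all 11 genes in both fractions, and the AZD8055 IP points (dark green) lie below the tumor IP points.

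Genes that act with the mitotic kinesins were higher in tumor as well. All 16 partners tested were called higher in each fraction, beside 26.1% of all genes in IP and 24.5% in input. In control input 11 of the 16 pass the filter alone, and in control IP 15. The others (Kifc1, Aurkb, Plk1, Cdk1 and Ccnb1 in input and Aurkb in IP) entered through the other libraries and had to differ. Cenpe, the kinetochore kinesin, was at 2.21, 2.15 and 3.49 CPM in control IP and at 31.5, 28.6 and 28.9 in tumor IP, a log2 fold of 3.53 ± 0.39. Prc1, which bundles midzone microtubules and binds Kif4, was at 3.06, 2.56 and 2.58 CPM in control IP and 59.9, 51.5 and 54.2 in tumor IP, a log2 fold of 4.36 ± 0.27. Both were far apart between the groups. Tpx2, which nucleates spindle microtubules, rose by 3.47 ± 0.17 in IP, and Racgap1, the partner of Kif23, by 2.30 ± 0.18. Kifc1, a minus-end motor of the spindle, rose by 2.97 ± 0.24, but its near-identical copy Kifc5b leaves its counts uncertain. The smallest change was that of Incenp, a scaffold of the passenger complex, at 0.62 ± 0.13. Markers of the oligodendrocyte precursor lineage, which many gliomas resemble (Pdgfra, Olig1, Olig2, Sox10 and Cspg4), moved the same way: 5 of 5 were higher in tumor in each fraction. Their sum was 201 to 279 CPM in control input and 4071 to 5085 in tumor input, and none was at 0 in any library. The part of these cells in the mitotic values was not tested.

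Transport kinesins moved less and mostly the other way. Of the 15, 10 were lower in tumor and 3 higher in each fraction, and the 13 genes and their directions were shared between the fractions. Of all genes tested, 20.9% were called lower in IP and 23.6% in input. The median log2 fold of the 15 was -0.45 in IP and -0.37 in input. Summed over the 15 genes, control input stood at 9073, 8869 and 8663 CPM and tumor input at 4306, 6358 and 6416. Control IP stood at 9096, 8903 and 8371 and tumor IP at 4998, 6748 and 6746. Tumor replicate 1 was the lowest library in both fractions, and the groups did not overlap with or without it.

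The kinesin-1 heavy chains pair with light chains to carry vesicles and other cargo along axons, and they did not move as a group. Kif5a (chromosome 10, 127225695 to 127266348), a neuronal chain, stood at 3119.5, 2747 and 2694 CPM in the control input libraries and at 918, 1787 and 1689.8 in tumor input. In IP it was at 1872, 1995 and 1815 in control and at 861, 1264 and 1301 in tumor. The groups did not overlap, and the log2 fold was -0.98 ± 0.23 in input and -0.70 ± 0.14 in IP, with adjusted p of 0.00529 and 0.00258 in edgeR. Kif5a shares part of its span with Dctn2. Kif5c (chromosome 2, 49619286 to 49774778), also neuronal, fell from 1365, 1410.3 and 1444 CPM to 553, 898 and 909 in input, a log2 fold of -0.86 ± 0.18. In IP it fell from 1538, 1443 and 1423 to 692, 934 and 954, a log2 fold of -0.74 ± 0.12. Kif5b (chromosome 18, 6201005 to 6241524), the chain that most cell types make, stood at 400.1, 423 and 444 CPM in the control input libraries and 455, 437 and 468 in tumor input. Its log2 fold was 0.08 ± 0.10 in input (approximate 95% interval -0.12 to 0.28) and 0.18 ± 0.09 in IP (0.01 to 0.35), and neither passed the test. The intervals rest on the normal distribution and are narrower than the edgeR test implies. In IP the interval excludes no change although the unadjusted p in edgeR was not under 0.05. The neuronal chains were thus lower in every tumor library, while those of Kif5b overlapped with control in input.

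Kinesin-2 motors that pair Kif3a with Kif3b or Kif3c are joined by the adaptor Kifap3. Kif3a had log2 folds of -0.37 ± 0.12 in input and -0.47 ± 0.10 in IP. Kif3b had -0.37 ± 0.09 and -0.35 ± 0.09, and Kif3c, the neuronal subunit, -0.37 ± 0.10 and -0.38 ± 0.09. All 3 were called lower in both fractions, and the call of Kif3a in input was lost without tumor input replicate 1 (-0.25, adjusted p = 0.0596 in edgeR) or without control input replicate 2 (-0.33, 0.0975) or 3 (-0.34, 0.0853). Kif3b was at 142, 126 and 139 CPM in control IP and at 96.2, 113 and 105 in tumor IP, so the groups stood apart by a small step. Kif17, a dendritic motor of NMDA receptor cargo, changed by -0.88 ± 0.15 in input and -0.63 ± 0.11 in IP.

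Kinesin-3 motors differed among themselves. Kif1a (chromosome 1, 93015455 to 93102039), which carries synaptic vesicle precursors, stood at 1535, 1494 and 1328 CPM in the control input libraries and 734, 1051 and 1038 in tumor input. It changed by -0.65 ± 0.15 in input and -0.47 ± 0.12 in IP. Kif1b, with a similar role, changed by -0.64 ± 0.17 and -0.45 ± 0.14, and its call in IP was lost without control IP replicate 1 (-0.42, adjusted p = 0.066 in edgeR) or 2 (-0.45, 0.0593). Kif16b, a motor of early endosomes, changed by -0.74 ± 0.19 in input and -0.72 ± 0.17 in IP. In contrast, Kif13a (chromosome 13, 46749087 to 46929917), a vesicle motor of many cell types, stood at 36.2, 44.1 and 38.1 CPM in the control input libraries and 105, 107 and 113 in tumor input. In IP it was at 35.1, 42.7 and 37.9 and 97.7, 118 and 109, and it rose by 1.43 ± 0.14 and 1.52 ± 0.11, a 2.7-fold and a 2.87-fold difference. Its groups were far apart in both fractions. Kif1c rose by 0.33 ± 0.11 in input and 0.52 ± 0.14 in IP, but the input call was lost without any of 5 single libraries (tumor input 1 or 3, or any control input) and the IP call without control IP replicate 1. The values without a library were between 0.26 and 0.40. Kif13b was not called, at -0.16 ± 0.13 and 0.07 ± 0.16.

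The kinesin-4 motors Kif21a and Kif21b, close relatives that act on microtubule growth, moved in opposite directions. Kif21a stood at 318, 340 and 331 CPM in the control input libraries and 103, 186 and 218 in tumor input, a log2 fold of -0.98 ± 0.21, and it changed by -0.93 ± 0.16 in IP. Kif21b was at 106, 96.7 and 99.2 CPM in control and 146, 151 and 159.9 in tumor input, a log2 fold of 0.58 ± 0.10, and rose by 0.83 ± 0.12 in IP. Kif21a was lowest in tumor replicate 1, and Kif21b did not overlap between groups in either fraction.

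**Figure D2:**
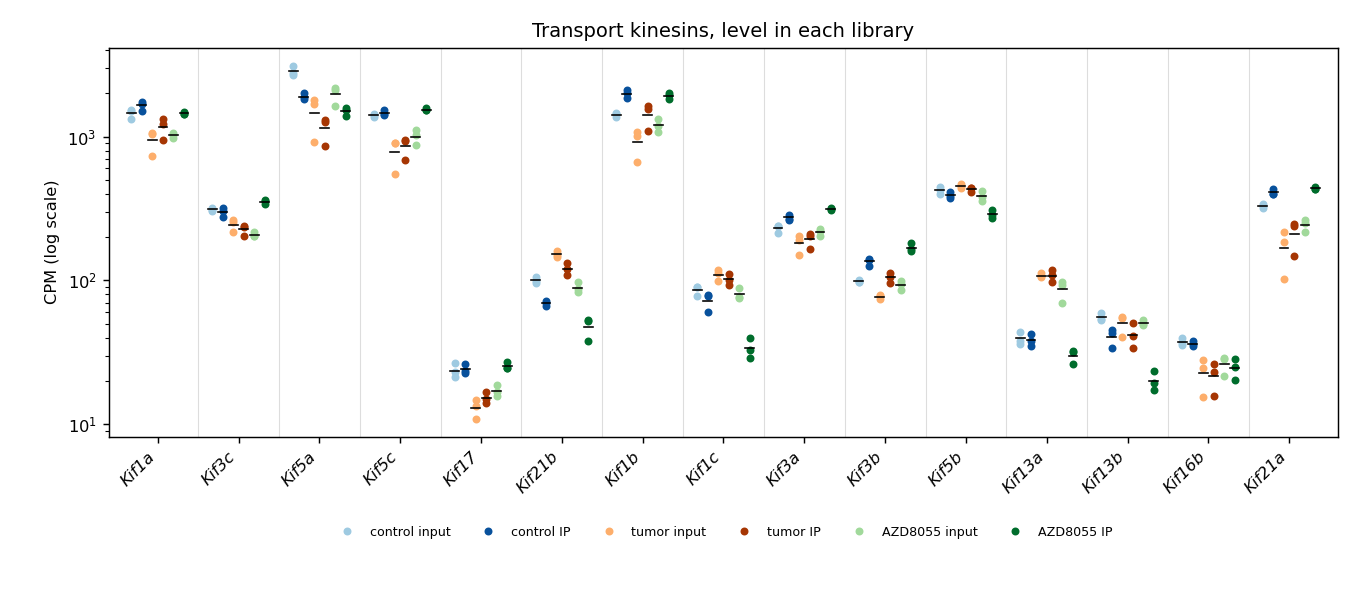
Level of each of the 15 transport kinesins in every library, in CPM on a log scale, with points for libraries, colors for the 6 groups and black bars for group means. Most genes are lower in tumor (orange, brown) than in control (blue), while Kif13a and Kif21b are higher, and Kif1c, Kif13a, Kif13b and Kif21b are lowest in AZD8055 IP (dark green).

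Of the adaptors and other transport partners, 13 of 23 tested were lower and 2 higher in tumor IP, and 12 lower and 2 higher in tumor input. Of all genes tested, 20.9% were called lower and 26.1% higher in IP, and 23.6% and 24.5% in input. The kinesin-1 light chain genes Klc1 and Klc2 changed in IP by -0.53 ± 0.12 and -1.01 ± 0.16, and Kifap3 by -0.53 ± 0.14. Klc2 was at 227, 198 and 214 CPM in control IP and 74.8, 112 and 124 in tumor IP. Klc3, another light chain, rose by 2.38 ± 0.30 from a low level, and Kifc3, a minus-end motor, by 0.59 ± 0.12. The fall was thus not shared by all members of the light chain family, and Klc4 was not called in IP at 0.01 ± 0.13. Markers of several brain cell types were lower beside the transport kinesins, those of neurons among them. The sum of the 6 excitatory-neuron markers was 2376 to 2668 CPM in control input and 894 to 1595 in tumor input, with 6 of 6 called lower. In IP it was 2994 to 3713 and 1425 to 1836, with 5 of 6 called lower. The sum of the 5 inhibitory-neuron markers was 930.3 to 1063 CPM in control IP and 388 to 705 in tumor IP. The 4 oligodendrocyte markers were each called lower in both fractions, with a median log2 fold of -1.17 in IP and -1.18 in input, beside -0.76 and -0.86 for the excitatory-neuron markers. Their sum was 2439.7 to 2690.2 CPM in control input and 717 to 1612 in tumor input. Of the 4 astrocyte markers, 2 were lower and 1 higher in IP, and 3 lower and 1 higher in input. The microglia markers did not share the fall, with 0 of 5 called in each fraction and medians of -0.18 in IP and -0.04 in input. Of the 4 endothelial markers, 0 were called in IP and 1 was lower in input. No marker of these lists was at 0 in any library. Their part in the values of the transport kinesins was not tested.

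Ciliary and other kinesins followed neither pattern as a group. Kif7, which acts in Hedgehog signaling at the tip of the cilium, was at 4.01, 3.2 and 3.12 CPM in control IP and 14.2, 10.9 and 15.8 in tumor IP, a log2 fold of 2.02 ± 0.19, and rose by 2.38 ± 0.23 in input. Kif19a, which limits the length of motile cilia, rose by 2.43 ± 0.52 and 2.26 ± 0.46, and tumor replicate 2 was the lowest tumor library in both fractions (18.9, 6.22 and 18.8 CPM in input). Kif24, which acts at centrioles, rose by 1.60 ± 0.28 and 1.17 ± 0.23. The spans of Kif7 and Kif19a overlap Ticrr and Btbd17. Kif27 of motile cilia changed by -0.76 ± 0.19 and -0.69 ± 0.21, and Kif6 and Kif9 were called lower in input only (Kif6 -0.78 ± 0.22, Kif9 -1.23 ± 0.22). In IP, Kif6 was at -0.62 ± 0.28 and Kif9 at -0.57 ± 0.22, and the difference between fractions was not called for Kif6 (0.12 ± 0.34) or for Kif9 (0.62 ± 0.31). The ependymal markers summed to 9.42 to 14.2 CPM in control input and 7.4 to 10.7 in tumor input, and 3 of the 5 were at 0 in some library. Kif26a, a kinesin without motor activity, rose by 1.77 ± 0.30 and 2.23 ± 0.27, and Kif26b changed by -0.62 ± 0.18 and -0.34 ± 0.12. The call of Kif26b in IP was lost without 1 library in 4 of 6 cases (-0.26 to -0.36), and in input without control input replicate 1 (-0.59) or 2 (-0.61). Those of Kif27 in IP (without control IP replicate 2 or 3, -0.68 and -0.67) and of Kif6 in input (without control input replicate 2, -0.73) were lost too. Kif2a, which takes microtubule ends apart in growing axons, was not called, at -0.12 ± 0.11 and -0.18 ± 0.11. Kif12 had between 0 and 2 counts and was not tested.

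Over the family, 30 of 35 tested kinesins were called in IP, 18 higher and 12 lower, and 32 of 35 in input, 18 higher and 14 lower. Of all genes, 47% were called in IP (26.1% higher, 20.9% lower) and 48.1% in input (24.5% higher, 23.6% lower). No kinesin was called higher in a fraction and lower in the other. Whether the difference between tumor and control was itself unequal in IP and input was tested in edgeR as an interaction over all 18 libraries. It called 0 of 35 kinesins and 0.0687% of all genes (0.05% higher and 0.0187% lower). At an unadjusted p under 0.05 there was 1 mitotic and 0 transport kinesins. DESeq2 called 1 mitotic and 0 transport kinesins, beside 40 of all 16016 genes. Kif20a had the smallest adjusted p, at a log2 difference of -1.86 ± 0.43 (adjusted p = 0.235 in edgeR). With the replicate number as a block, which pairs input and IP of the same number, Kif20a was called at -1.84 ± 0.28 (adjusted p = 0.000685 in edgeR), beside 0.418% of all genes (0.318% higher and 0.0999% lower).

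**Figure D3:**
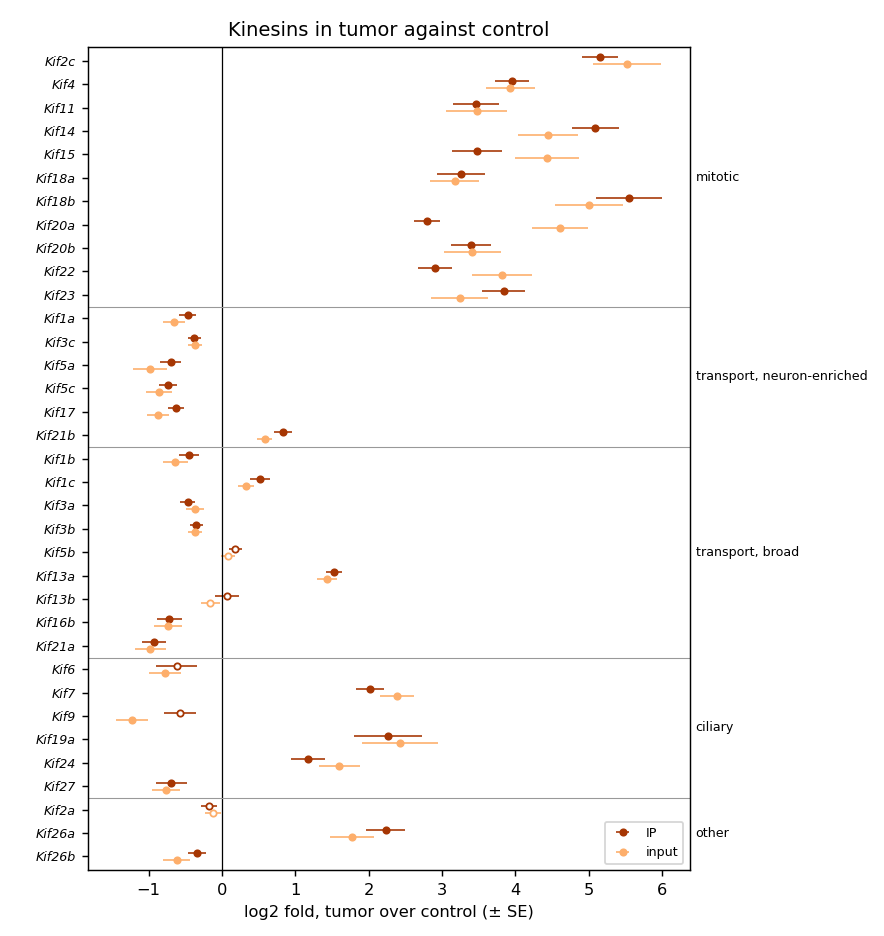
Log2 fold of tumor over control for each tested kinesin, in IP (brown) and input (orange), with bars for the standard error from the edgeR fit, filled points for an adjusted p under 0.05 and open points for the rest. The mitotic genes lie between 2.79 and 5.55, and the transport genes between -0.98 and 1.52.

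The next comparison set AZD8055-treated tumor against tumor in input, where treatment and library set cannot be told apart, and it shares the tumor libraries with the comparison above. The mitotic kinesins summed to 420, 190.2 and 154 CPM in AZD8055 input, beside 308, 286 and 262 in tumor input. Replicate 1 lay above every tumor library and the other replicates below all of them, so the groups overlapped. Kif11 was at 105, 39.2 and 32 CPM in AZD8055 input, a log2 fold of 0.02 ± 0.36 against tumor with a 95% interval of -0.68 to 0.72. Kif20a was at 35.8, 19.6 and 15 CPM, a log2 fold of -0.15 ± 0.29 (interval -0.72 to 0.43). Kif4 was at 36, 19.7 and 15.8, a log2 fold of -0.46 ± 0.27 (interval -0.99 to 0.07). These intervals are wide and include changes in both directions. The edgeR test called 0 of 11 mitotic kinesins, 0 had an unadjusted p under 0.05, and DESeq2 called 0. Of all genes tested, edgeR called 17.1% in either direction, 9.17% lower, and DESeq2 called 3285 of 15511. The median log2 fold of the 11 was -0.02, beside 0.01 over all genes.

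The result in input rested on replicate 1. Without AZD8055 input replicate 1, 6 of 11 mitotic kinesins were called lower, beside 9% of all genes (7.09% higher and 16.1% in either direction). They were Kif4 (-0.90 ± 0.20), Kif11 (-0.72 ± 0.17), Kif15 (-0.70 ± 0.16), Kif18a (-0.90 ± 0.20), Kif18b (-0.98 ± 0.28) and Kif20b (-0.61 ± 0.18). Leaving out any other AZD8055 or tumor input library gave 0 calls. Among the partners, 1 of 16 was called with all libraries, Racgap1 at -0.69 ± 0.19 (adjusted p = 0.0306 in edgeR), beside 17.1% of all genes (9.17% lower). The 5 lineage markers were each called lower, and their sum was 1956 to 2753 CPM in AZD8055 input and 4071 to 5085 in tumor input. In AZD8055 input, replicate 1 had the highest sum of these markers (2753, 2483 and 1956). Their part in the mitotic values was not tested.

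Of the transport kinesins, 1 of 15 was called higher and 2 lower in AZD8055 input, beside 7.89% and 9.17% of all genes, and the median log2 fold of the 15 was 0.26. Kif21b was at 87.4, 97.1 and 82.7 CPM, below every tumor input library (146, 151 and 159.9), a log2 fold of -0.73 ± 0.10. Kif1c was at 75.1, 88.3 and 76.3 CPM beside 119, 98.4 and 112, a log2 fold of -0.41 ± 0.11, and Kif3b rose by 0.32 ± 0.09. Of these, the call of Kif21b held without any single AZD8055 or tumor input library. That of Kif1c was lost without AZD8055 input replicate 1 or 3 or tumor input replicate 3, with values of -0.38 to -0.41. That of Kif3b held only without AZD8055 input replicate 1 of the 6 cases, with values of 0.27 to 0.34 where it was lost. Kif5a was at 0.47 ± 0.22 and Kif5c at 0.39 ± 0.18, neither called. Kif2a was lower, with a log2 fold of -0.40 ± 0.11 (adjusted p = 0.0313 in edgeR), and its call was lost without 1 library in 4 of 6 cases (-0.34 to -0.40). In all, 4 of 35 kinesins were called (11.4%), beside 17.1% of all genes.

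In IP the same comparison gave a different picture, with the same limit on library sets. All 11 tested mitotic kinesins were lower with AZD8055 than in tumor, by a log2 fold of -1.34 (Kif20b) to -2.73 (Kif18b). Their sum stood at 87.9, 42.6 and 45.9 CPM in AZD8055 IP, beside 216, 242 and 224 in tumor IP and 18.2, 20 and 19.3 in control IP. The 3 groups did not overlap, with AZD8055 IP between the others. Kif11 was at 21.1, 8.96 and 8.83 CPM in AZD8055 IP and 41.7, 54.1 and 43.2 in tumor IP, a log2 fold of -1.91 ± 0.29 with an adjusted p of 0.000239 in edgeR. Kif2c was at 3.35, 2.23 and 2.07 CPM beside 13.5, 12.5 and 12.1, a log2 fold of -2.39 ± 0.20. Kif23 was at 5.97, 2.86 and 3.62 beside 14.7, 14.4 and 14.2, a log2 fold of -1.87 ± 0.26. Replicate 1 was again the highest of the AZD8055 libraries, and 11 of 11 were called without it. Of all genes tested, 33.5% were called lower and 58.7% in either direction. The median log2 fold of the 11 was -2.08, beside -0.09 over all genes.

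The partners followed, with 15 of 16 lower, beside 33.5% of all genes (25.1% were higher). Tpx2 had a log2 fold of -2.46 ± 0.17, Prc1 of -2.43 ± 0.24, Cenpe of -1.11 ± 0.34 and Racgap1 of -1.28 ± 0.17, while Incenp was not called at -0.27 ± 0.13. Markers of other cell types were lower too. The lineage markers summed to 377 to 500.5 CPM in AZD8055 IP and 3525 to 3871 in tumor IP, with 5 of 5 called lower. The astrocyte markers summed to 162 to 218 and 793 to 902 CPM, and the microglia markers to 20.5 to 30.4 and 113 to 158. The excitatory-neuron markers went the other way, from 1425 to 1836 CPM in tumor IP to 3346 to 4088 in AZD8055 IP, with 6 of 6 called higher. The part of these cells in the kinesin values was not tested.

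The transport kinesins split in IP, 8 of 15 higher and 5 lower with AZD8055, beside 25.1% and 33.5% of all genes. Of the 10 genes called lower in tumor IP, 8 were higher with AZD8055 than in tumor, and the remaining ones, Kif1a at 0.29 ± 0.12 and Kif16b at 0.16 ± 0.17, were not called. All 3 genes higher in tumor IP were lower with AZD8055. The comparisons share the tumor IP libraries, so these counts are not independent of each other. Kif5c was at 692, 934 and 954 CPM in tumor IP and 1521, 1580.5 and 1526 in AZD8055 IP, a log2 fold of 0.81 ± 0.12. Kif21a was at 147, 245 and 240.3 beside 448, 432 and 429.9, a log2 fold of 1.02 ± 0.16, and Kif3b at 96.2, 113 and 105 beside 159.7, 181 and 165, a log2 fold of 0.66 ± 0.09. Every AZD8055 library of these 3 genes lay above every tumor library. Kif3a (0.66 ± 0.10), Kif3c (0.61 ± 0.09) and Kif17 (0.70 ± 0.11) rose by similar amounts. The calls of Kif5a (0.36 ± 0.14, adjusted p = 0.0486 in edgeR) and Kif1b (0.40 ± 0.14, 0.0289) were weak. That of Kif5a was lost without 1 library in 5 of 6 cases (0.21 to 0.43), and that of Kif1b without AZD8055 IP replicate 2 (0.37) or 3 (0.40). With plain library totals both were lost (Kif5a 0.24, Kif1b 0.27), and the split was 6 higher and 5 lower.

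The genes that were lower with AZD8055 in IP were Kif13a (-1.89 ± 0.12), Kif1c (-1.62 ± 0.15), Kif21b (-1.36 ± 0.12), Kif13b (-1.10 ± 0.17) and Kif5b (-0.61 ± 0.09). Kif13a was at 97.7, 118 and 109 CPM in tumor IP and 31.6, 26.2 and 32.2 in AZD8055 IP, with no overlap. Kif13b and Kif5b had not been called between tumor and control in either fraction. Kif5b was at 412, 439 and 440.3 CPM in tumor IP and 307, 273 and 285 in AZD8055 IP, below all control IP libraries (388, 409 and 372) as well. Of the transport partners, 16 of 23 were higher and 2 lower, beside 25.1% and 33.5% of all genes. Klc2 rose by 1.32 ± 0.16, Klc1 by 1.04 ± 0.13 and Kifap3 by 0.68 ± 0.14, while Klc3 changed by -1.91 ± 0.29 and Kifc3 by -0.70 ± 0.12. Among the remaining kinesins, Kif7 (-2.07 ± 0.19), Kif19a (-2.68 ± 0.48), Kif24 (-1.01 ± 0.23), Kif26a (-2.51 ± 0.28) and Kif26b (-0.30 ± 0.12) were lower and Kif9 (0.70 ± 0.22) higher. The calls of Kif9 and Kif26b were lost without 1 library in 2 of 6 and in 5 of 6 cases.

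The last comparisons set IP against input within each condition, which asks which RNA the tagged polysomes held more or less of. In control, where fraction and library set cannot be told apart, the mitotic kinesins were near their lowest levels in both fractions. Kif20a had 25, 15 and 14 counts in the input libraries and 86, 59 and 69 in the IP libraries, and its log2 ratio of IP over input was 1.27 ± 0.28. Kif22 (0.86 ± 0.28) and Kif15 (0.73 ± 0.26) were also higher in IP, while Kif23 was lower, at 2.35, 1.44 and 2.32 CPM in input and 0.716, 1.33 and 1.09 in IP. These 4 of 9 tested were called by edgeR, beside 36.5% of all genes (17.7% higher, 18.8% lower), and the median of the 9 was -0.34. Without control replicate 3 the test called 0 of 10, beside 20.8% of all genes (9.87% higher and 11% lower), with 1 at an unadjusted p under 0.05. The counts without replicate 1 or 2 were 3 and 2.

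Of the 15 transport kinesins in control, 3 were higher and 3 lower in IP, shares near those of all genes (17.7% and 18.8%). Kif1b was at 1373, 1459.8 and 1425 CPM in input and 2111, 1994 and 1854 in IP, a log2 ratio of 0.46 ± 0.09. Kif3b (0.44 ± 0.08) and Kif21a (0.29 ± 0.08) were also higher, and the call of Kif21a was lost without control replicate 2 (0.33) or 3 (0.32), and that of Kif13b without replicate 3 (-0.46). Lower in IP were Kif5a (-0.61 ± 0.09), Kif21b (-0.56 ± 0.08) and Kif13b (-0.48 ± 0.11). With plain library totals in place of TMM the split was 3 higher and 5 lower. With the replicate block it was 4 and 4, beside 21.9% and 23.1% of all genes (45% in either direction), with Kif3a (0.22 ± 0.08) and Kif1c (-0.28 ± 0.07) added. Kif2a was at 85.1, 88.7 and 97.2 CPM in input and 153, 134 and 141 in IP, a log2 ratio of 0.64 ± 0.08 with no overlap. Kif6 (-0.66 ± 0.22), Kif26a (-0.61 ± 0.19) and Kif9 (-0.76 ± 0.17) were lower in IP, and the calls of Kif6 and Kif26a were lost without 1 replicate in 2 of 3 cases each. The excitatory-neuron markers summed to 2376 to 2668 CPM in input and 2994 to 3713 in IP, with 3 of 6 called higher. Astrocyte markers summed to 914 to 1020.3 and 927 to 1096 CPM, with 1 of 4 called higher. Inhibitory-neuron markers summed to 917 to 1096 and 930.3 to 1063, with 1 of 5 lower. Microglia markers summed to 161 to 177 and 158 to 174, with 2 of 5 lower. Endothelial markers summed to 216 to 239 and 111 to 162, with 3 of 4 lower. Their part in the kinesin values was not tested.

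In tumor, edgeR called 0 of 11 mitotic kinesins between IP and input, with 5 at an unadjusted p under 0.05 and 4 called by DESeq2. Of all genes edgeR called 5.09%, 2.11% higher and 2.98% lower, and DESeq2 called 1728 of 15245. The share of all genes at an unadjusted p under 0.05 was not counted. The sums of the mitotic kinesins were 308, 286 and 262 CPM in input and 216, 242 and 224 in IP, so every IP library lay below every input library. Input and IP libraries of the same number varied together, and with the number as a block 8 of 11 were called lower in IP, beside 18.1% of all genes (35.6% in either direction). The called genes lay between -0.61 (Kif18b) and -0.25 (Kif15), and Kif14 (0.05 ± 0.11), Kif18a (-0.04 ± 0.10) and Kif22 (-0.09 ± 0.12) were not called. Kif11 was at -0.36 ± 0.09 with the block (adjusted p = 0.0025 in edgeR) and at -0.37 ± 0.17 without it (adjusted p = 0.262 in edgeR).

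Of the transport kinesins in tumor, Kif3b was the only gene called, higher in IP by 0.44 ± 0.09 (adjusted p = 0.0433 in edgeR), and its call was lost without tumor replicate 2 (0.42) or 3 (0.47). Without replicate 2 the test called 0 of all 15306 genes, and without replicate 3 it called 4 of 15463. With plain library totals the call of Kif3b was lost too (0.36, adjusted p = 0.0633 in edgeR), and the split was 0 higher and 1 lower. With the block, 4 of 15 were called higher, beside 17.6% of all genes, and 3 lower. The higher ones were Kif1a (0.32 ± 0.08), Kif1b (0.64 ± 0.08), Kif3b (0.44 ± 0.08) and Kif21a (0.35 ± 0.09). The lower ones were Kif5a (-0.32 ± 0.09), Kif13b (-0.27 ± 0.09) and Kif21b (-0.34 ± 0.08). Kif2a was called with the block at 0.55 ± 0.08 and missed the threshold without it, at 0.56 ± 0.14 (adjusted p = 0.0657 in edgeR). Without the block, 0 of 6 excitatory-neuron and 0 of 4 astrocyte markers were called in tumor, beside 5.09% of all genes. The median log2 ratios of these lists were 0.35 and 0.01, and 1 of 5 lineage markers was lower in IP. Their part in the kinesin values was not tested.

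With AZD8055, where both fractions lie within a library set, all 11 mitotic kinesins were lower in IP than in input, by a log2 ratio of -1.83 (Kif18a) to -2.79 (Kif18b). Of all genes 32.5% were called lower and 61.5% in either direction. The median of the 11 was -2.11, beside -0.02 over all genes. Kif11 was at 105, 39.2 and 32 CPM in input and 21.1, 8.96 and 8.83 in IP, a log2 ratio of -2.23 ± 0.50. Kif2c was at 27, 13.9 and 9.77 beside 3.35, 2.23 and 2.07, a log2 ratio of -2.77 ± 0.39. Within same-numbered pairs, the log2 ratio of Kif11 was -2.32, -2.13 and -1.86 with AZD8055, -0.58, -0.35 and -0.16 in tumor and -0.34, -0.26 and -0.33 in control. The AZD8055 pairs thus lay close together although replicate 1 had far more mitotic RNA in both fractions. The ratio was called for 11 of 11 genes with or without any single replicate, and with the replicate block, beside 35.7% of all genes lower, 33.2% higher and 68.9% in either direction.

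The transport kinesins split with AZD8055, 8 of 15 higher in IP and 6 lower, beside 29% and 32.5% of all genes. Higher in IP were Kif3b (0.86 ± 0.09), Kif21a (0.84 ± 0.10), Kif3c (0.76 ± 0.08), Kif1b (0.69 ± 0.11), Kif5c (0.63 ± 0.11), Kif17 (0.58 ± 0.12), Kif3a (0.54 ± 0.08) and Kif1a (0.51 ± 0.09). Lower were Kif13a (-1.53 ± 0.15), Kif13b (-1.33 ± 0.13), Kif1c (-1.22 ± 0.13), Kif21b (-0.89 ± 0.14), Kif5b (-0.42 ± 0.10) and Kif5a (-0.39 ± 0.13). Of the 6 neuron-enriched genes, Kif5a and Kif21b were the lower ones, while the broadly expressed genes were split 4 to 4 with Kif16b not called. The calls of Kif1a and Kif5b and of Kif5a were lost without AZD8055 replicate 2 (0.52, -0.43 and -0.35), and those of Kif5a and Kif5b also without replicate 3 (-0.34 and -0.33). With plain library totals Kif17 was not called (0.30), and the split was 7 higher and 6 lower. Kif2a rose from 61, 55.9 and 68.4 CPM in input to 149.9, 137 and 139 in IP, a log2 ratio of 1.20 ± 0.10. Kif7 (-1.92 ± 0.19), Kif19a (-2.23 ± 0.52), Kif24 (-0.96 ± 0.29) and Kif26a (-1.74 ± 0.28) were lower in IP, and the calls of Kif19a (-1.87) and Kif24 (-0.81) were lost without replicate 2.

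The partners split along the same line, 15 of 16 mitotic partners lower in IP and 15 of 23 transport partners higher with 4 lower. Of all genes, 29% were called higher and 32.5% lower. Prc1 was at -2.46 ± 0.39 and Klc2 at 1.02 ± 0.13. The excitatory-neuron markers summed to 1195 to 1598 CPM in AZD8055 input and 3346 to 4088 in IP, with 6 of 6 called higher in IP. Markers of the other cell types were lower in AZD8055 IP than in its input. The 5 lineage markers summed to 1956 to 2753 CPM in input and 377 to 500.5 in IP, the 4 oligodendrocyte markers to 1178 to 1706 and 313 to 484, and the 4 endothelial markers to 136 to 190.1 and 17.2 to 32.1. All of these 13 genes were called lower, as were 5 of 5 inhibitory-neuron, 4 of 4 astrocyte and 5 of 5 microglia markers. In tumor the corresponding sums of lineage markers were 4071 to 5085 CPM in input and 3525 to 3871 in IP. The part of the makeup of the IP in the kinesin values was not tested.

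**Figure D4:**
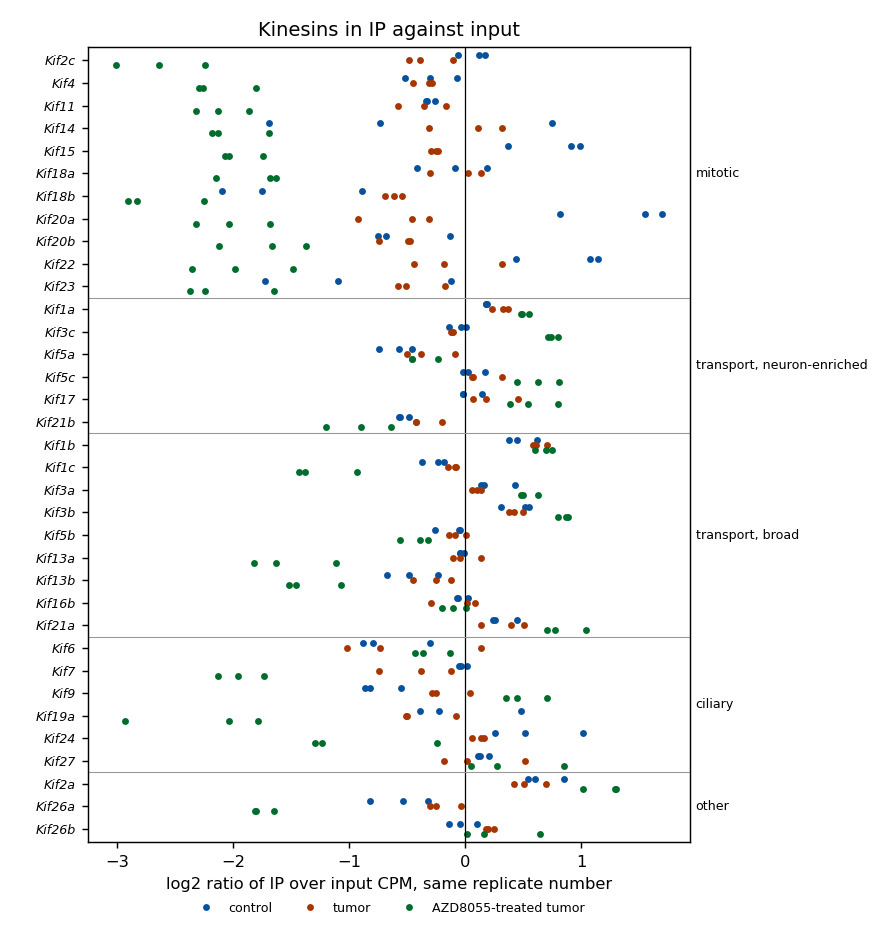
Log2 ratio of IP over input CPM within each same-numbered pair of libraries for each tested kinesin, with 3 points for control (blue), tumor (brown) and AZD8055 (green). The AZD8055 points of the mitotic genes lie between -3.01 and -1.37, left of all tumor points, while those of Kif3a, Kif3b and Kif3c lie to the right of their tumor points.

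Whether the ratio of IP over input was unequal between AZD8055 and tumor was tested as an interaction over all 18 libraries, which includes the library sets. It was lower with AZD8055 for 11 of 11 mitotic kinesins, beside 20.8% of all genes (33.1% in either direction), with a median of -1.87 beside -0.04 over all genes. Kif2c had the largest difference at -2.45 ± 0.39 and Kif20b the smallest at -1.31 ± 0.44, and the call of Kif20b was lost without AZD8055 replicate 2 (-1.36) or tumor replicate 2 (-1.27) or 3 (-1.28). Kif11 differed by -1.87 ± 0.51 (adjusted p = 0.0106 in edgeR). Of the transport kinesins, Kif3c (0.85 ± 0.13), Kif3a (0.42 ± 0.16) and Kif3b (0.40 ± 0.12) had a higher ratio with AZD8055. Kif13a (-1.55 ± 0.18), Kif1c (-1.14 ± 0.19), Kif13b (-1.09 ± 0.22), Kif21b (-0.57 ± 0.15) and Kif5b (-0.37 ± 0.12) had a lower ratio. The 3 that were higher are the Kif3 subunits of kinesin-2, while Kif17 was not called. With plain library totals only Kif3c of these 3 was called and the split was 1 higher and 5 lower. With the block it was 5 higher, with Kif5c (0.46 ± 0.13) and Kif21a (0.47 ± 0.13) added, and 5 lower, beside 21.8% and 28.4% of all genes (50.1% in either direction). Without tumor replicate 2 or 3 the test called 5 of the 15. The call of Kif3a was lost without 1 replicate in 5 of 6 cases (0.38 to 0.46) and that of Kif5b in 4 of 6 (-0.29 to -0.38). That of Kif3b was lost without tumor replicate 3 (0.38) and that of Kif21b without tumor replicate 2 (-0.50). Kif5a (-0.05 ± 0.29) and Kif1b (0.04 ± 0.23) were not called, so their IP over input ratios were not shown to differ between tumor and AZD8055.

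The kinesin-1 heavy chains can also be read against each other within a library, free of scaling. The counts of Kif5a as a share of those of Kif5a, Kif5b and Kif5c were 63.9, 60 and 58.8% in control input and 49.3, 51.9 and 50.3% in control IP. In tumor they were 47.7, 57.3 and 55.1% in input and 43.8, 47.9 and 48.3% in IP, and with AZD8055 56.5, 60.6 and 58.6% and 43.2, 45.3 and 46.6%. The share was lower in IP than in the input of the same number in 9 of 9 pairs. The share of Kif5c went the other way, from 27.9, 30.8 and 31.5% in control input to 40.5, 37.5 and 39.4% in control IP, from 28.7, 28.8 and 29.6% to 35.2, 35.4 and 35.4% in tumor and from 30.2, 29.2 and 30.1% to 47.3, 46.7 and 45% with AZD8055. Input shares of Kif5c lay close together in all conditions, and its IP share was highest with AZD8055. Kif5b had 8.19, 9.24 and 9.7% of the counts in control input and 23.6, 14 and 15.3% in tumor input, where replicate 1 was the highest. It had 21, 16.6 and 16.3% in tumor IP and 9.54, 8.07 and 8.41% in AZD8055 IP. These shares are not corrected for transcript length, and they were given no test of their own.

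**Figure D5:**
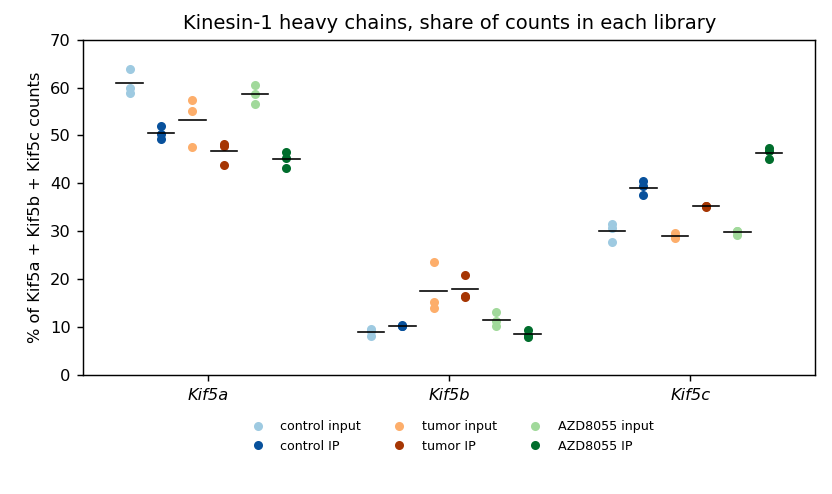
Share of Kif5a, Kif5b and Kif5c in the sum of their counts, in percent, for every library, with colors for the 6 groups and black bars for group means. Kif5a is lower and Kif5c higher in IP than in input in each condition, and Kif5b is highest in tumor (means of 17.6% in input and 18% in IP).

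The contrast between the mitotic and the transport kinesins can be put as the summed CPM of the first in percent of the second. It was 0.244, 0.203 and 0.221% in control input and 0.2, 0.225 and 0.231% in control IP. It was 7.16, 4.5 and 4.09% in tumor input and 4.32, 3.59 and 3.32% in tumor IP. With AZD8055 it was 7, 2.7 and 2.19% in input and 1.11, 0.51 and 0.558% in IP. The control fractions overlapped with each other and lay below all other groups, tumor IP overlapped with tumor input, and AZD8055 input had 1 library within the range of tumor input and the others below every tumor library. AZD8055 IP lay between control and every other group. The ratio is not per transcript length, so its size is meaningful only between groups.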

How the data were processed

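Raw read counts per gene symbol, as deposited by the authors, were used for 18 libraries. RNA was made into strand-specific libraries, per the labels' protocols, and STAR, mm10 and DESeq2 are named by the submitters' processing notes. Counter, annotation and strand setting: not given in the sources used here. The members and gene lists were chosen with earlier results of these data known. Genes were kept by filterByExpr and tested with the quasi-likelihood F test of edgeR 4.0.16 (R 4.3.3, TMM scaling), with Benjamini-Hochberg adjustment over all genes tested and a threshold of 0.05. Conditions were compared in a fit of the 9 libraries of a fraction, IP and input in a fit of the 6 libraries of a condition, and interactions over all 18 libraries. Standard errors were taken from the fold and the F statistic. The tests were checked on simulated data. Named partners were the 3 with the smallest adjusted p and the 1 with the largest in a comparison, plus Cenpe, Kifc1, Racgap1, Prc1, Tpx2, Klc1, Klc2 and Kifap3. Alternatives were DESeq2 1.42.0, other scalings and filters, a replicate block, all libraries in 1 fit, and libraries left out. In comparisons within a fraction each library of the groups compared was left out. In comparisons of IP with input and in interactions, input and IP of a replicate number were left out together. Input and IP of the same number varied together (correlation of deviations over 16016 genes control pairs 0.18 to 0.24, tumor pairs 0.49 to 0.74, AZD8055 pairs 0.23 to 0.47), so the numbers were taken to pair them. Figures were drawn with matplotlib 3.10.9.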

Additional observations from a re-analysis of the deposited data

Results flagged for a closer look

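The ratio of IP over input differed between AZD8055 and tumor by a test of the difference itself for 23 of 35 kinesins tested, 4 higher and 19 lower, beside 33.1% of all genes (12.3% higher and 20.8% lower). On the log2 scale it was lower with AZD8055 for Kif11 (-1.87), Kif13a (-1.55), Kif13b (-1.09), Kif14 (-2.14), Kif15 (-1.79), Kif18a (-1.80), Kif18b (-2.21), Kif1c (-1.14), Kif20a (-1.56), Kif20b (-1.31), Kif21b (-0.57), Kif22 (-2.02), Kif23 (-1.80), Kif24 (-1.11), Kif26a (-1.59), Kif2c (-2.45), Kif4 (-1.87), Kif5b (-0.37) and Kif7 (-1.51). It was higher for Kif2a (0.63), Kif3a (0.42), Kif3b (0.40) and Kif3c (0.85). Of the 6 cases that leave out 1 replicate, the call was lost in 5 for Kif3a, in 4 for Kif5b, in 4 for Kif24, in 3 for Kif20b, and in 1 each for Kif3b and Kif21b.

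In some genes every pair of libraries of a condition had a ratio of one sign and every pair of another condition the opposite sign. Between tumor and control the difference of the mean ratios was -1.01 for Kif15 and -1.91 for Kif20a. Without the replicate block the edgeR test of this difference did not call either gene, at -0.99 ± 0.59 for Kif15 and -1.86 ± 0.43 for Kif20a. With the block, which keeps the pairs, it called Kif20a at -1.84 ± 0.28 (adjusted p = 0.000685) and did not call Kif15 (adjusted p = 0.0633). Between AZD8055 and control it was -2.70 for Kif15, -3.36 for Kif20a, -2.83 for Kif22, -1.52 for Kif24 and 1.24 for Kif9, and these differences were not tested.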

How the results depend on the processing

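Mitotic counts between tumor and control, between AZD8055 and tumor in IP, and between IP and input with AZD8055 were 11 under each alternative run. In control IP against input (4 mitotic calls) DESeq2 gave 2, plain library totals 2 and a fit of all 18 libraries 1, and leaving out a replicate gave 0 to 3. Of all genes in that comparison, DESeq2 called 5261 and plain library totals 5375 of 14958, and the fit of all 18 libraries 3671 of 16016. Leaving out a replicate gave 3134 to 4608 genes. A mean of at least 5 CPM left no mitotic kinesin to test there, so it gave no value. In tumor (0 mitotic calls) DESeq2 gave 4 and the replicate block 8, and leaving out a replicate gave 0 to 1. Of all genes there, DESeq2 called 1728 and the replicate block 5433 of 15245, and leaving out a replicate gave 0 to 1755. For transport kinesins in tumor (1 call) DESeq2 gave 3, the mean of at least 5 CPM 0, no filter 0, the replicate block 7 and all 18 libraries 3, and leaving out a replicate gave 0 to 3. Plain library totals gave 1 call there, lower in IP in place of higher. Of all genes, the mean of at least 5 CPM called 451 of 12012, no filter 739 of 21609 and all 18 libraries 2225 of 16016. For the interaction of tumor and control (0 mitotic calls) DESeq2 and the replicate block each gave 1, beside 40 and 67 of all 16016 genes. Leaving out a library gave 0 to 6 mitotic and 1 to 2 transport calls for AZD8055 against tumor in input. For the interaction of AZD8055 and tumor, leaving out a replicate, input and IP together, gave 5 to 10 transport calls. Of all genes these runs called 1359 to 2598 in input and 3498 to 5926 for the interaction. Without AZD8055 input replicate 1, Kif11 (-0.72) and Kif20b (-0.61) were called lower in input. With all libraries neither was called and neither log2 fold was above 0.12, so the sign changed from near no change. Without any other library Kif11 lay between -0.12 and 0.32 and Kif20b between -0.09 and 0.31. The replicate block moved no other total of calls of these lists by over 1.5 times. By direction it moved the transport calls higher with AZD8055 from 3 to 5 in that interaction and from 1 to 2 in input. Same-numbered libraries of different conditions were not taken as paired (correlations of -0.07 to 0.29), although the highest of these exceed the correlations of the control pairs of input and IP. With plain library totals the median log2 fold of all genes was 0.11 for tumor against control in IP, -0.23 for AZD8055 against tumor in IP and -0.30 for IP against input with AZD8055. Of the single-gene results, 3452 kept their call, 122 lost it, 80 gained a call with the same sign and 2 gained a call with a changed sign. Where a count moved, the cause was not tested. Control counts of Kif2c, Kif14 and Kif18b limit the precision of their folds.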
